A study of Mus musculus with 10 samples.

Results

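Nampt and 9 further genes of NAD metabolism were examined across 10 liver RNA-seq libraries from a study of Ifrd1, the gene of interferon-related developmental regulator 1, in liver regeneration. The 10 genes were taken by symbol from a table of 23056 gene symbols, and all 10 passed the filter on low counts: Nampt, Naprt, Nadsyn1, Qprt, Acmsd, Nmnat1, Nmnat3, Nmrk1, Nnmt and Sirt1. They were put together with results of the same genotype comparison known, so their differences between the groups are given as a description. Poly(A) RNA came from 6 livers labelled wild type (WT) and 4 livers labelled IFRD1-KO (KO), and each library was taken to be a different mouse. All mice had undergone partial hepatectomy 12 hours earlier, an operation that here took out the left lateral and median lobes and sets off regrowth of the rest. No source used here gives the strain, sex, age, the KO allele or the cells that carry it, and no unoperated liver was analysed, so nothing below is a change from the resting organ.

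NAD is the coenzyme of cellular redox reactions and the substrate of sirtuins and poly-ADP-ribose polymerases. Liver makes it from tryptophan along the kynurenine (de novo) route, from nicotinic acid along the Preiss-Handler route, and from nicotinamide or nicotinamide riboside by salvage. NAMPT is the rate-limiting enzyme of nicotinamide salvage, QPRT and NAPRT open the last steps of the other routes, and loss of hepatocyte NAMPT is known to slow regeneration after partial hepatectomy.

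KO livers had less Nampt than 5 of the 6 WT livers and more Naprt, Nadsyn1 and Qprt than the same 5. Nampt averaged 78.9 ± 30.1 CPM (read counts scaled for library size; SD, n = 6) in WT and 26.8 ± 4.39 CPM (n = 4) in KO, a 2.95-fold lower level. Naprt averaged 48.0 ± 28.5 CPM in WT and 107 ± 10.01 CPM in KO, 2.23-fold higher. The remaining WT library, WT replicate 4, lay inside the KO range for Nampt, Naprt and Nadsyn1 and above it for Qprt. The test across all genes (edgeR quasi-likelihood, Benjamini-Hochberg adjusted p under 0.05) called 1 of the 10 genes, Nampt, which was lower in KO. It called 1.33% of all 13688 genes tested (0.767% lower and 0.563% higher). The groups were free of overlap in 0 of the 10 genes, against 6.90% of all genes (3.61% higher and 3.29% lower in KO). The median log2 fold change was 0.13 over the 10 genes, with 5 above and 5 below 0, and -0.02 over all genes tested, of which 48.4% lay above and 51.6% below 0. Since the genes were chosen with these values in view, nothing is read from the counts.

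Library totals were 12307446 to 17098012 counts. The share of counts on mitochondrial genes was 14.5 to 17.6% in WT replicates 1 to 3 and 24.5 to 28.9% in WT replicates 4 to 6. In KO it ran from 16.5 to 30.5%, and its bearing on the NAD genes was not tested. Ifrd1 itself stood at 40.2 to 81.7 CPM in WT and 13.02 to 22.6 CPM in KO, so reads remained on the gene in each KO library. WT replicate 4 correlated more closely with the KO libraries (mean r = 0.970 across genes) than with the remaining 5 of WT (0.918). Its own Ifrd1 level was 49.6 CPM, within the range of WT and above each KO library. On the log2 scale WT replicate 4 lay nearer the KO mean than the mean of those 5 for 9518 of 13688 genes tested (69.5%), and for 9 of the 10 NAD genes, all but Nmrk1. Nearer does not mean alike: for Nmnat1 it stood at 44.5 CPM, above every other library of either group. In bulk liver RNA, fewer cells of a type and less RNA per cell cannot be told apart. Summed markers of Kupffer cells and macrophages (7 of 7 detected) ranged from 41.5 to 252 CPM in WT and from 32.3 to 64.9 CPM in KO, and those of monocytes and neutrophils (7 of 7) from 11.6 to 175 and from 8.68 to 18.3 CPM. Neither sum passed the two-sided exact permutation test (adjusted p = 0.675 for each over 7 marker lists by Benjamini-Hochberg), and the highest value of each was in WT replicate 2. Without that library the KO minus WT difference went from -33.8 to -8.24 CPM for monocytes and neutrophils and from -65.1 to -38.0 CPM for Kupffer cells and macrophages. These cells also express Nampt, and their part in its level was not tested. Hepatocyte markers were abundant throughout, with a sum of 35919 to 79231 CPM in WT and 48329 to 58070 CPM in KO (exact permutation adjusted p = 0.933).

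**Figure D1:**
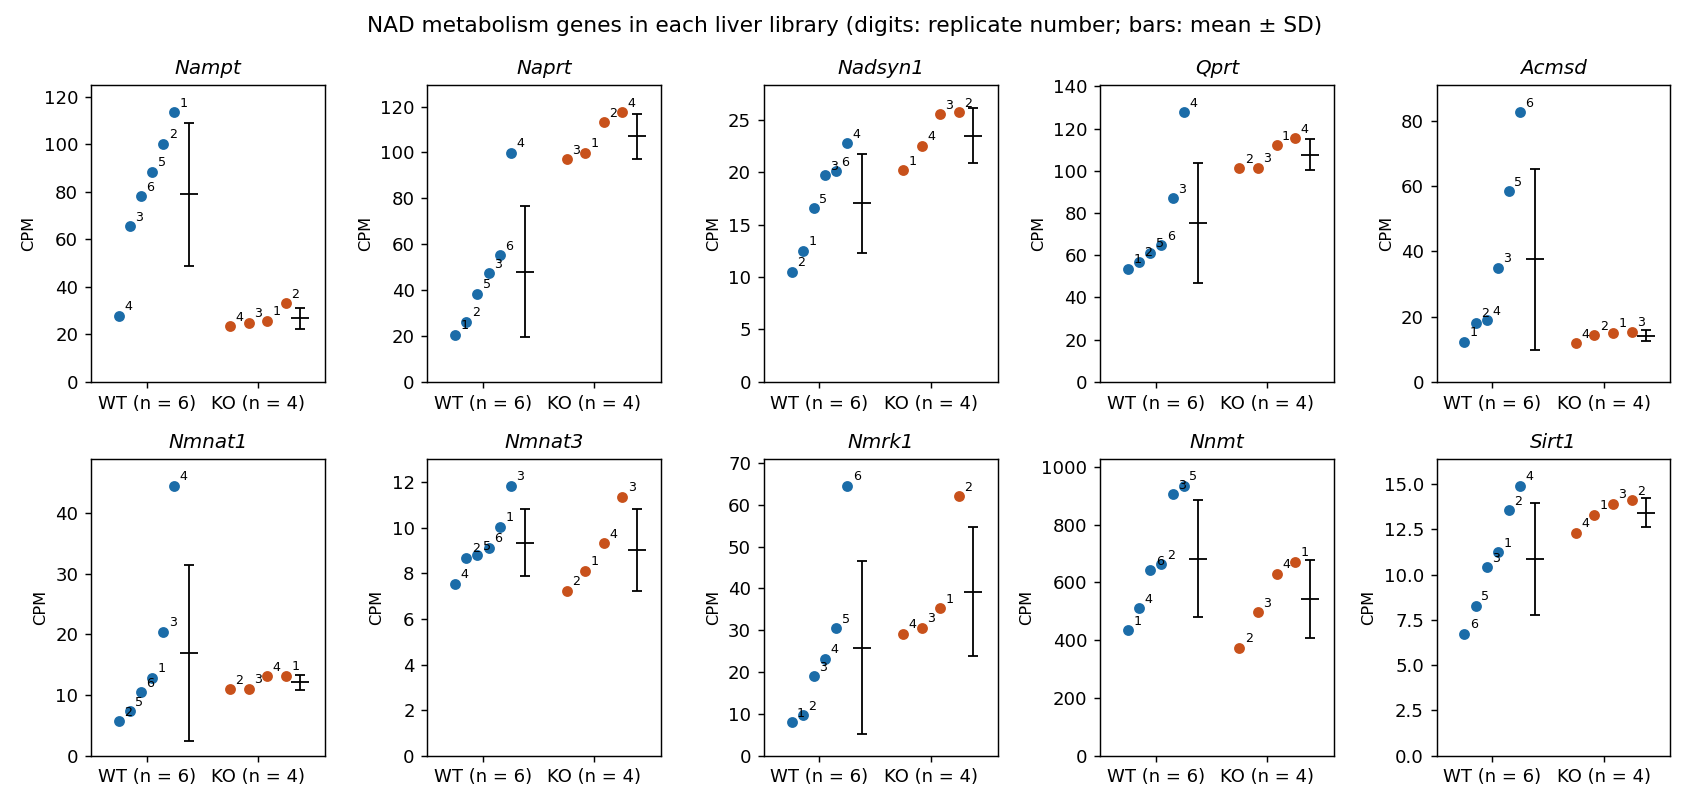
CPM of the 10 NAD genes in each library, WT in blue (n = 6) and KO in orange (n = 4), with the replicate number beside each point and the mean ± SD beside each group; every axis starts at 0. WT replicate 4 lies with the KO libraries for Nampt, Naprt and Nadsyn1, and the KO points are close together in most panels.

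The promoters of 3 of the genes are shown here because of how their values compare: Nampt and Qprt ran in opposite order across the 6 WT libraries, and Sirt1 held the only motif match. Each run is the 250 bases before the RefSeq transcript start (build GRCm38.p6), written 5′ to 3′ on the gene's strand, with matches to the E-box CACGTG in capitals. Nampt lies at chr12:32820085-32820334 (plus strand), Qprt at chr7:127122030-127122279 (minus strand) and Sirt1 at chr10:63339036-63339285 (minus strand).
Nampt: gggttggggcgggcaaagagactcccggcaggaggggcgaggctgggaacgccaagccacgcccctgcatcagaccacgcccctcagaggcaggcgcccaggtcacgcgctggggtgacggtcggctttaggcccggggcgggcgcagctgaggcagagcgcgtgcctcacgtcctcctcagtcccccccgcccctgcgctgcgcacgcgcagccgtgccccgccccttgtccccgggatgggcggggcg
Qprt: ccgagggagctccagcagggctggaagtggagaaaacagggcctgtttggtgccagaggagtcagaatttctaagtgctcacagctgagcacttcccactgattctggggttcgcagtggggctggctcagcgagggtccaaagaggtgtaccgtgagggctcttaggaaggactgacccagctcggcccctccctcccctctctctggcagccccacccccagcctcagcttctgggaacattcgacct
Sirt1: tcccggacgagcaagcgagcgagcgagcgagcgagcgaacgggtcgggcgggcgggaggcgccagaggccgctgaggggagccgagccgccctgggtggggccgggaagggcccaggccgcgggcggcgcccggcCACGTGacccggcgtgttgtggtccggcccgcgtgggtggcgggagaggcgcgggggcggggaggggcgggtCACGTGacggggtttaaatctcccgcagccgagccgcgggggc
The E-box is the element bound by the clock factors CLOCK and BMAL1 and by MYC, and Nampt is known as a gene of the hepatic clock. Windows were at hand for 8 of the 10 genes (not for Naprt and Nnmt). Sirt1 alone held an E-box, in 2 copies that begin 115 and 43 bases before the start, and 6.02% of 32817 RefSeq promoter windows of this length held at least 1. Of 3 further motifs, searched on both strands, none was found in the 8 genes: the cyclic AMP element TGACGTCA (1.55% of all windows), the FOXO element GTAAACA (3.16%) and the AP-1 element TGANTCA (6.75%). No match says only that these letters are not in this window. By the gene coordinates given below (GENCODE), the Nampt and Sirt1 windows lie wholly inside the gene, and the Qprt window partly. For these genes GENCODE thus places a start further upstream, and no window was searched there. The Nampt window was 75.6% G and C, the Qprt window 60.8% and the Sirt1 window 79.2%.

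Nampt (ENSMUSG00000020572.8, chromosome 12, 32819545 to 32853349, plus strand, GRCm38) encodes nicotinamide phosphoribosyltransferase. Its WT level ran from 27.8 CPM in WT replicate 4 over a median of 83.2 to 114 CPM in WT replicate 1. The KO libraries stood at 25.7, 33.2, 24.8 and 23.4 CPM (replicates 1 to 4). The other 5 WT libraries, at 65.5 CPM or more, were all above each KO library, and the overlap came from WT replicate 4. On the log2 scale KO minus WT was -1.56 (SE 0.32) and stayed between -1.73 and -1.43 when 1 library was left out. Nampt was called without WT replicate 4 and lost its call without any of WT replicates 1, 2, 3, 5 and 6 or KO replicates 1 to 4. In these 9 fits at most 55 of all genes were called. The gene body of Nampt lies 7.35 Mb from that of Ifrd1 on chromosome 12. Of 8 tested genes between them, 0 were called in either direction, against 1.33% of all genes. Free of overlap between the groups was 1 of the 8, against 6.90% of all genes. Their median log2 fold change was -0.05, from -1.08 to 1.53. With only 8 genes nothing is read from these counts, and an effect of the neighbourhood was not tested.

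Naprt and Nadsyn1 carry the Preiss-Handler route. Naprt (chromosome 15, 75890956 to 75894481, minus strand) encodes nicotinate phosphoribosyltransferase, the enzyme of its opening step. It ran from 20.6 CPM in WT replicate 1 over a median of 42.9 to 99.8 CPM in WT replicate 4, and stood at 99.8, 113, 97.1 and 118 CPM in KO. Each KO library was above the 5 WT libraries other than WT replicate 4, whose highest level was 55.3 CPM. KO minus WT on the log2 scale was 1.16 (SE 0.35), and 1.51 without WT replicate 4. Of the Naprt exon bases, 11.8% are also exon of its neighbour Eef1d on the same strand. The log2 fold change of Eef1d was 0.09 and it was not called.

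Nadsyn1 (chromosome 7, 143795584 to 143822849, minus strand) encodes NAD synthetase, which amidates the end product of the Preiss-Handler and de novo routes to NAD. It ran from 10.5 CPM in WT replicate 2 over a median of 18.1 to 22.7 CPM in WT replicate 4. The KO libraries stood at 20.2, 25.7, 25.5 and 22.5 CPM. KO replicate 1 was only just above WT replicate 6, at 20.1 CPM, so the separation from those 5 WT libraries was narrow. This gave a log2 fold change of 0.46 (SE 0.21).

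Qprt and Acmsd act at the branch point of tryptophan breakdown. QPRT turns quinolinic acid into a NAD precursor, and ACMSD diverts the intermediate before it away from NAD. Qprt (chromosome 7, 127107114 to 127122226, minus strand) ran from 53.6 CPM in WT replicate 1 over a median of 63.1 to 128 CPM in WT replicate 4, and stood at 112, 101.3, 101.4 and 115 CPM in KO. The 5 other WT libraries reached 87.1 CPM at most and lay below each KO library. As a log2 fold change this was 0.52 (SE 0.23), and 0.73 without WT replicate 4.

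Acmsd (chromosome 1, 127729413 to 127767978, plus strand) followed another order. It stood at 58.4 and 82.7 CPM in WT replicates 5 and 6, at 34.9 CPM in WT replicate 3, and at 12.3, 18.1 and 19.0 CPM in WT replicates 1, 2 and 4. The KO libraries lay at 15.1, 14.3, 15.4 and 11.8 CPM. WT replicate 1 was inside the KO range, and the fitted difference (log2 fold change -1.41, SE 0.49) rested on the libraries that stood high. It was -1.01 without WT replicate 6 and -0.58 without WT replicates 5 and 6. Of its exon bases, 3.3% overlap an antisense transcript, 2900009J06Rik, and no source used here gives the strand setting of the counting.

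Nampt, Naprt and Qprt ordered the WT livers almost alike. From the highest Nampt to the lowest, the WT replicates ran 1, 2, 5, 6, 3, 4, and from the lowest Qprt to the highest the order was the same in all 6. The Naprt order differed from it only in that WT replicates 3 and 6 changed places. Within the groups, with group means removed, Pearson's r between Nampt and Qprt in log2 CPM was -0.964 over the 10 libraries, and 6 of 11526 genes compared had a lower value. For Naprt it was -0.885, and 138 genes were lower. The 10 points share their libraries and scaling, and WT replicate 4 lies far from the others, so the values are a description. The count ratio of Naprt to Nampt showed the same spread: it was 0.182 in WT replicate 1, 0.262 in WT replicate 2, 0.724 in WT replicate 3, 0.435 in WT replicate 5 and 0.708 in WT replicate 6. In WT replicate 4 it was 3.59, and in the KO libraries 3.88, 3.41, 3.91 and 5.03. Fewer Naprt than Nampt counts were thus found in 5 WT libraries, and more in WT replicate 4 and each KO library. Counts are not scaled for exon length, which was 5.054 kb for Nampt and 2.344 kb for Naprt. Per kilobase of exon, Naprt was above Nampt also in WT replicate 3 (20.22 against 12.96 CPM per kb) and WT replicate 6 (23.58 against 15.45). It stayed below Nampt in WT replicates 1, 2 and 5.

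**Figure D2:**
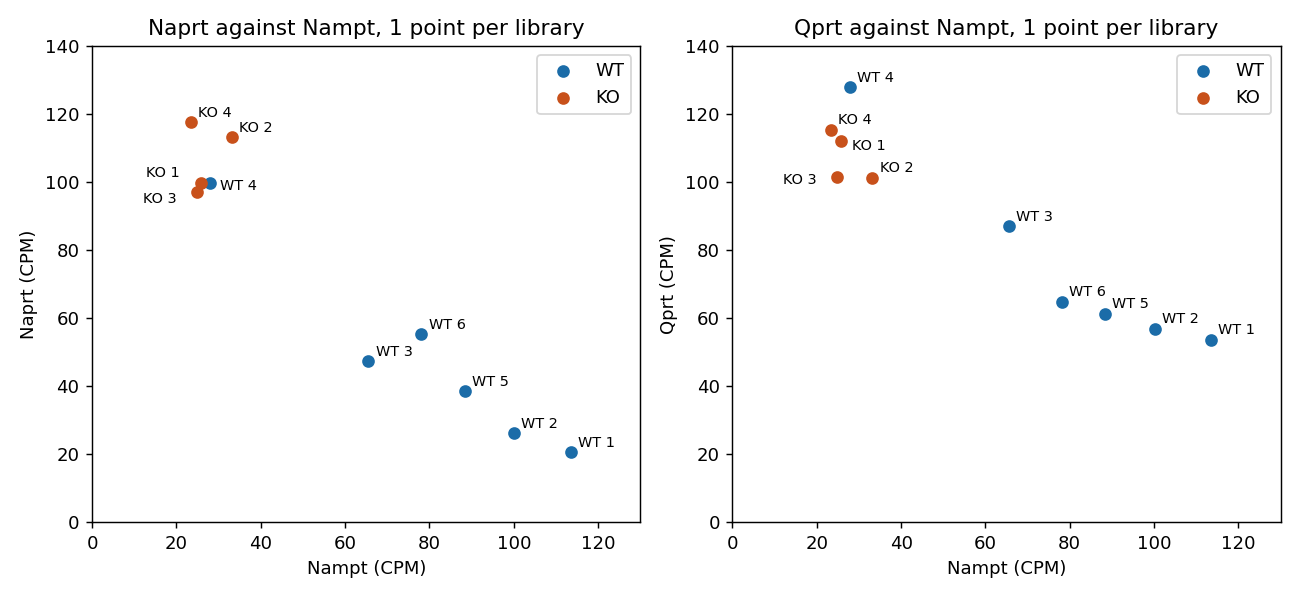
Naprt (left) and Qprt (right) against Nampt in CPM, 1 point per library, WT in blue and KO in orange. The 5 WT libraries other than replicate 4 lie at Nampt levels of 65.5 CPM or more, and WT replicate 4 lies among the KO points for Naprt and above them for Qprt.

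The NMNAT enzymes, which join the mononucleotide to the rest of NAD, showed no such split. Nmnat1 (chromosome 4, 149467572 to 149485202, minus strand), the nuclear enzyme, ran from 5.67 over a median of 11.6 to 44.5 CPM in WT, the highest again in WT replicate 4, and was at 13.2, 10.9, 11.1 and 13.1 CPM in KO. All KO libraries lay within the range of the other 5 WT libraries (5.67 to 20.4 CPM). The log2 fold change of -0.48 (SE 0.50) became 0.09 without WT replicate 4. Nmnat3 (chromosome 9, 98287435 to 98420438, plus strand), the mitochondrial enzyme, was the steadiest of the 10 genes in WT, at 7.55 to 11.8 CPM with a median of 8.96. It stood at 8.11, 7.24, 11.4 and 9.33 CPM in KO (log2 fold change -0.05, SE 0.18). The groups covered nearly the same range for Nmnat3. Nmnat2, the neuronal family member, fell under the filter, with means of 0.411 ± 0.160 (WT) and 0.237 ± 0.0968 CPM (KO).

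Nmrk1 (chromosome 19, 18631950 to 18652428, plus strand) encodes nicotinamide riboside kinase. It stood at 8.06, 9.68, 19.0, 23.2, 30.5 and 64.6 CPM in WT replicates 1 to 6, an 8.01-fold range, and at 35.2, 62.0, 30.6 and 29.2 CPM in KO. WT replicate 6 was the highest of all libraries, KO replicate 2 the next, and the groups overlapped widely. Its fitted log2 fold change was 0.60 (SE 0.51), 1.12 without WT replicate 6 and 0.30 without KO replicate 2.

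Nnmt and Sirt1 use nicotinamide and NAD. Nnmt (chromosome 9, 48591877 to 48605153, minus strand), which methylates nicotinamide and so removes it from salvage, ran from 435 over a median of 653 to 935 CPM in WT and was at 672, 374, 496 and 630 CPM in KO. Its log2 fold change was -0.33 (SE 0.25), with 3 of the 4 KO libraries inside the WT range. Sirt1 (chromosome 10, 63319005 to 63381704, minus strand), the NAD-dependent deacetylase, ran from 6.73 over a median of 10.8 to 14.9 CPM in WT and was at 13.3, 14.1, 13.9 and 12.3 CPM in KO (log2 fold change 0.30, SE 0.21). Sirt1 was lowest in WT replicates 5 and 6, at 8.29 and 6.73 CPM, the libraries in which Acmsd was highest, while WT replicate 2 lay inside the KO range and WT replicate 4 above it.

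**Figure D3:**
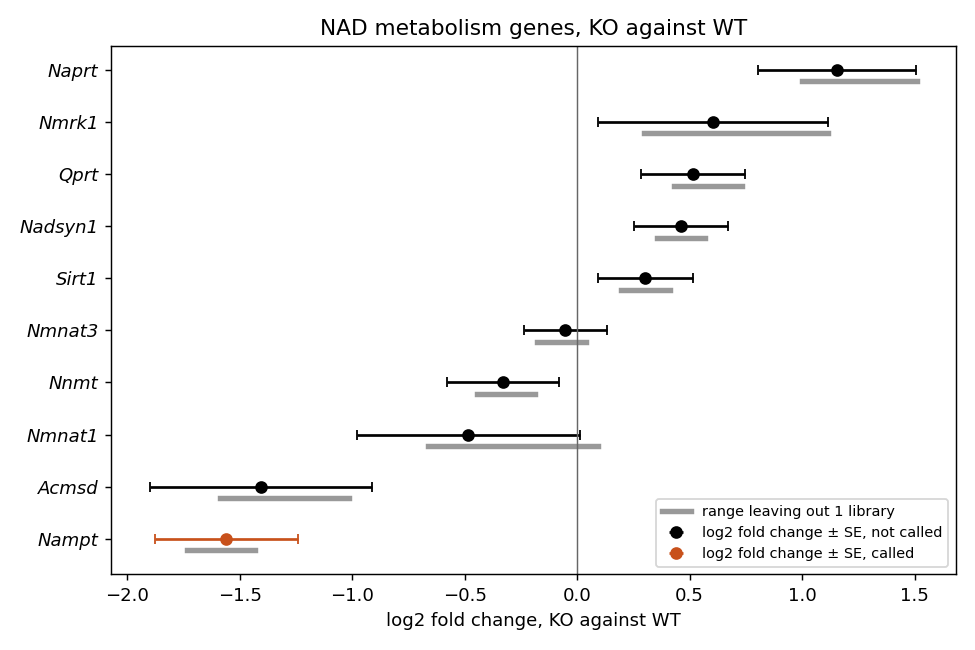
Log2 fold change of KO against WT for the 10 NAD genes with its standard error, in orange where called over all genes (Nampt) and in black where not; the grey line gives the range of the fold change with 1 of the 10 libraries left out. Nampt and Naprt lie at -1.56 and 1.16, and the grey lines of Nmnat1 and Nmnat3 cross 0.

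Per kilobase of exon, the scale on which genes can be set beside each other, Nnmt was the most abundant of the 10 in WT at 433 ± 129 CPM per kb (SD, n = 6). Qprt (28.5 ± 10.7), Naprt (20.5 ± 12.1), Nampt (15.6 ± 5.96) and Acmsd (13.3 ± 9.79 CPM per kb) followed within each other's spread. Nmrk1 (7.0 ± 5.62), Nmnat1 (5.55 ± 4.77) and Nadsyn1 (5.15 ± 1.44) came next, and Sirt1 (2.04 ± 0.579) and Nmnat3 (1.87 ± 0.293 CPM per kb) were lowest. In KO, Naprt (45.6 ± 4.27 CPM per kb, n = 4) and Qprt (40.7 ± 2.75) stood well above Nmrk1 (10.6 ± 4.18), Nadsyn1 (7.10 ± 0.800), Nampt (5.30 ± 0.869) and Acmsd (5.003 ± 0.576 CPM per kb). The mean of Nampt thus lay above that of Nadsyn1 in WT and below it in KO on this scale. WT replicate 4 had the order of the KO libraries, with Nampt at 5.507 and Nadsyn1 at 6.875 CPM per kb. Exon length was the union over annotated transcripts, so genes with long minor isoforms are understated.

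The 4 KO livers were more alike than the 6 WT livers in these genes. The coefficient of variation (SD over mean) was smaller in KO for 9 of the 10, all but Nmnat3, with a median of 37.9% in WT and 11.4% in KO. Over all genes tested it was smaller in KO for 80.4%, with medians of 29.4% and 16.9%. For Qprt it was 37.65% and 6.77%, and for Sirt1 28.4% and 5.999%.

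The wider NAD pathway was listed by function, but with earlier results of these data known. It held 63 genes including 14 clock genes, of which 61 were in the table and 56 were tested. Of the 56, 1 passed the edgeR test, Nadk2, which rose, and 0 passed as lower, against 1.33% of all genes in either direction. Among them, 28 had fold changes above 0 and 28 below, with a median log2 fold change of 0.00, and 7 of 56 were free of overlap, against 6.90% of all genes. An unadjusted p under 0.05 was found for 22 of 56, against 26.0% of all genes. DESeq2 called 8 of 56, against 11.8% of all genes: Nadk2, Slc25a51, Sirt5, Tiparp, Parp10, Per1, Ciart and Hlf. Nadk2, the mitochondrial NAD kinase that makes NADP, stood at 36.2 to 40.1 CPM in 5 WT libraries, 53.3 CPM in WT replicate 4, and 61.0, 73.7, 63.3 and 65.5 CPM in KO. The groups did not overlap. The fold change was 0.71 on the log2 scale, with SE 0.14 and a Benjamini-Hochberg adjusted p of 0.0440 by edgeR quasi-likelihood (0.000423 to 0.148 under the alternatives), and 4 of 4 KO libraries were higher. The call held without WT replicate 4 and was lost without any other 1 library (adjusted p from 0.0573 to 0.148 by edgeR quasi-likelihood). The cytosolic kinase gene Nadk had means of 98.3 ± 9.43 (WT) and 94.7 ± 8.62 CPM (KO).

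Slc25a51, named after its values were seen, encodes the carrier that brings NAD into mitochondria. It stood at 156, 250, 169, 99.8, 618 and 304 CPM in WT replicates 1 to 6 and at 69.6, 66.8, 73.2 and 85.0 CPM in KO. Every KO library was below every WT library, and WT replicate 5 stood far above the rest. Over all genes it missed the threshold (log2 fold change -1.85 with SE 0.44; Benjamini-Hochberg adjusted p = 0.0555 by edgeR quasi-likelihood, 0.000499 to 0.163 under the alternatives). Of the 8 genes of NADP and mitochondrial NAD, Nadk2 was the only one called, against 1.33% of all genes. By edgeR, 3 had an unadjusted p under 0.05, against 26.0% of all genes. DESeq2 called 2, against 11.8% of all genes. Free of overlap were 3 (Nadk2, Slc25a51 and Naxd), against 6.90% of all genes. Naxd ran from 31.3 to 35.1 CPM in WT and from 36.6 to 39.0 CPM in KO. The NADHX repair gene Naxe had means of 36.7 ± 2.21 (WT) and 36.5 ± 2.04 CPM (KO). Nnt, the mitochondrial transhydrogenase, was low in both groups, at 2.05 ± 0.626 and 1.89 ± 0.387 CPM.

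Of the 7 other genes of the de novo route, 6 were tested and 0 were called, 4 with fold changes above 0. By edgeR, 2 had an unadjusted p under 0.05, against 26.0% of all genes. DESeq2 called 0, against 11.8% of all genes. Kynu, kynureninase, averaged 43.2 ± 23.2 CPM in WT livers and 85.5 ± 13.3 CPM in KO livers (log2 fold change 0.98 with SE 0.34; Benjamini-Hochberg adjusted p = 0.107 by edgeR quasi-likelihood, 0.00689 to 0.226 under the alternatives). Its WT range was 19.3 to 83.4 CPM, the highest in WT replicate 4, and KO ran from 67.3 to 98.8 CPM. Ido2, a tryptophan dioxygenase, was at 12.3 ± 7.03 and 25.1 ± 2.67 CPM without overlap between the groups (Benjamini-Hochberg adjusted p = 0.114 by edgeR quasi-likelihood, 0.0401 to 0.221 under the alternatives). The gap was narrow, from 22.1 CPM in WT replicate 6 to 22.4 CPM in KO replicate 3. Tdo2, the main hepatic tryptophan dioxygenase, was at 561 ± 197 and 549 ± 117 CPM. Both named genes whose means were higher in KO, Kynu and Ido2, were lowest in WT replicates 1 and 2, where Qprt was lowest too.

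Of 8 salvage and nucleoside genes, 4 were tested and 0 were called. By edgeR, 2 had an unadjusted p under 0.05, against 26.0% of all genes. DESeq2 called 0, against 11.8% of all genes. The nucleoside transporter Slc29a1 averaged 70.7 ± 31.1 (WT) and 117 ± 9.30 CPM (KO) (log2 fold change 0.73 with SE 0.27; Benjamini-Hochberg adjusted p = 0.129 by edgeR quasi-likelihood, 0.00665 to 0.241 under the alternatives). The nucleotidase Nt5c2 was at 33.9 ± 14.7 and 21.3 ± 2.59 CPM (log2 fold change -0.67, SE 0.28). WT replicate 4 lay inside the KO range for Slc29a1, at 126 CPM, and for Nt5c2, at 20.9 CPM. Of the 2 aldehyde oxidases that oxidise nicotinamide products, Aox1 and Aox3, 0 were called. Unadjusted edgeR p-values were under 0.05 for 0, against 26.0% of all genes, and DESeq2 called 0, against 11.8%. Aox3 varied from 32.9 to 365 CPM among WT livers and from 73.0 to 371 CPM among KO livers.

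All 6 sirtuin genes besides Sirt1 had fold changes above 0, against 48.4% of all genes. Their median log2 fold change was 0.53, against -0.02 over all genes, and 0 of 6 were called. Unadjusted edgeR p-values were under 0.05 for 5 of the 6, against 26.0% of all genes. DESeq2 called 1, against 11.8% of all genes. Sirt5, the mitochondrial desuccinylase, was at 4.46 to 11.2 CPM in WT and at 13.4, 14.2, 11.7 and 14.0 CPM in KO, without overlap (log2 fold change 0.81 with SE 0.24; Benjamini-Hochberg adjusted p = 0.0787 by edgeR quasi-likelihood, 0.00983 to 0.187 under the alternatives). Sirt4, also mitochondrial, was at 6.23 ± 4.07 and 12.3 ± 0.972 CPM, with WT replicate 4 above each KO library at 13.8 CPM. Of 18 genes of the poly-ADP-ribose polymerase family and of glycohydrolases that consume NAD, 16 were tested and 0 were called. Fold changes were above 0 for 7 and below 0 for 9. Unadjusted edgeR p-values were under 0.05 for 5 of the 16, against 26.0% of all genes. DESeq2 called 2, against 11.8% of all genes. Tiparp, a mono-ADP-ribosyltransferase induced by the aryl hydrocarbon receptor, averaged 36.7 ± 28.5 CPM in WT livers and 6.80 ± 1.03 CPM in KO livers (log2 fold change -2.43 with SE 0.61; Benjamini-Hochberg adjusted p = 0.0621 by edgeR quasi-likelihood, 0.000278 to 0.163 under the alternatives). WT replicate 4, at 5.85 CPM, was within the KO range for it. Parp10 was at 31.2 ± 4.53 and 20.98 ± 3.27 CPM without overlap (log2 fold change -0.57 with SE 0.16; Benjamini-Hochberg adjusted p = 0.0685 by edgeR quasi-likelihood, 0.0132 to 0.187 under the alternatives), and Parp1, the main DNA damage polymerase, at 18.8 ± 3.23 and 20.6 ± 1.54 CPM.

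Of 14 clock genes, listed because Nampt is a clock output in liver, 0 were called, 4 with fold changes above and 10 below 0. By edgeR, 5 had an unadjusted p under 0.05, against 26.0% of all genes. DESeq2 called 3, against 11.8% of all genes. Per1 averaged 81.9 ± 20.3 (WT) and 46.9 ± 11.6 CPM (KO) without overlap (log2 fold change -0.80 with SE 0.22; Benjamini-Hochberg adjusted p = 0.0689 by edgeR quasi-likelihood, 0.0133 to 0.1895 under the alternatives). Ciart, a repressor of the clock, was at 6.21, 6.43, 9.63, 1.91, 20.5 and 32.5 CPM in WT replicates 1 to 6 and at 1.31 to 3.15 CPM in KO (Benjamini-Hochberg adjusted p = 0.0705 by edgeR quasi-likelihood, 0.000907 to 0.183 under the alternatives). WT replicates 5 and 6 had the highest Ciart, as they had the highest Acmsd and the lowest Sirt1. Npas2, a partner of BMAL1, averaged 5.24 ± 4.87 (WT) and 10.4 ± 1.47 CPM (KO), and it was at 0.173 and 0.0773 CPM in WT replicates 5 and 6. No source used here gives the hour of day at sampling.

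**Figure D4:**
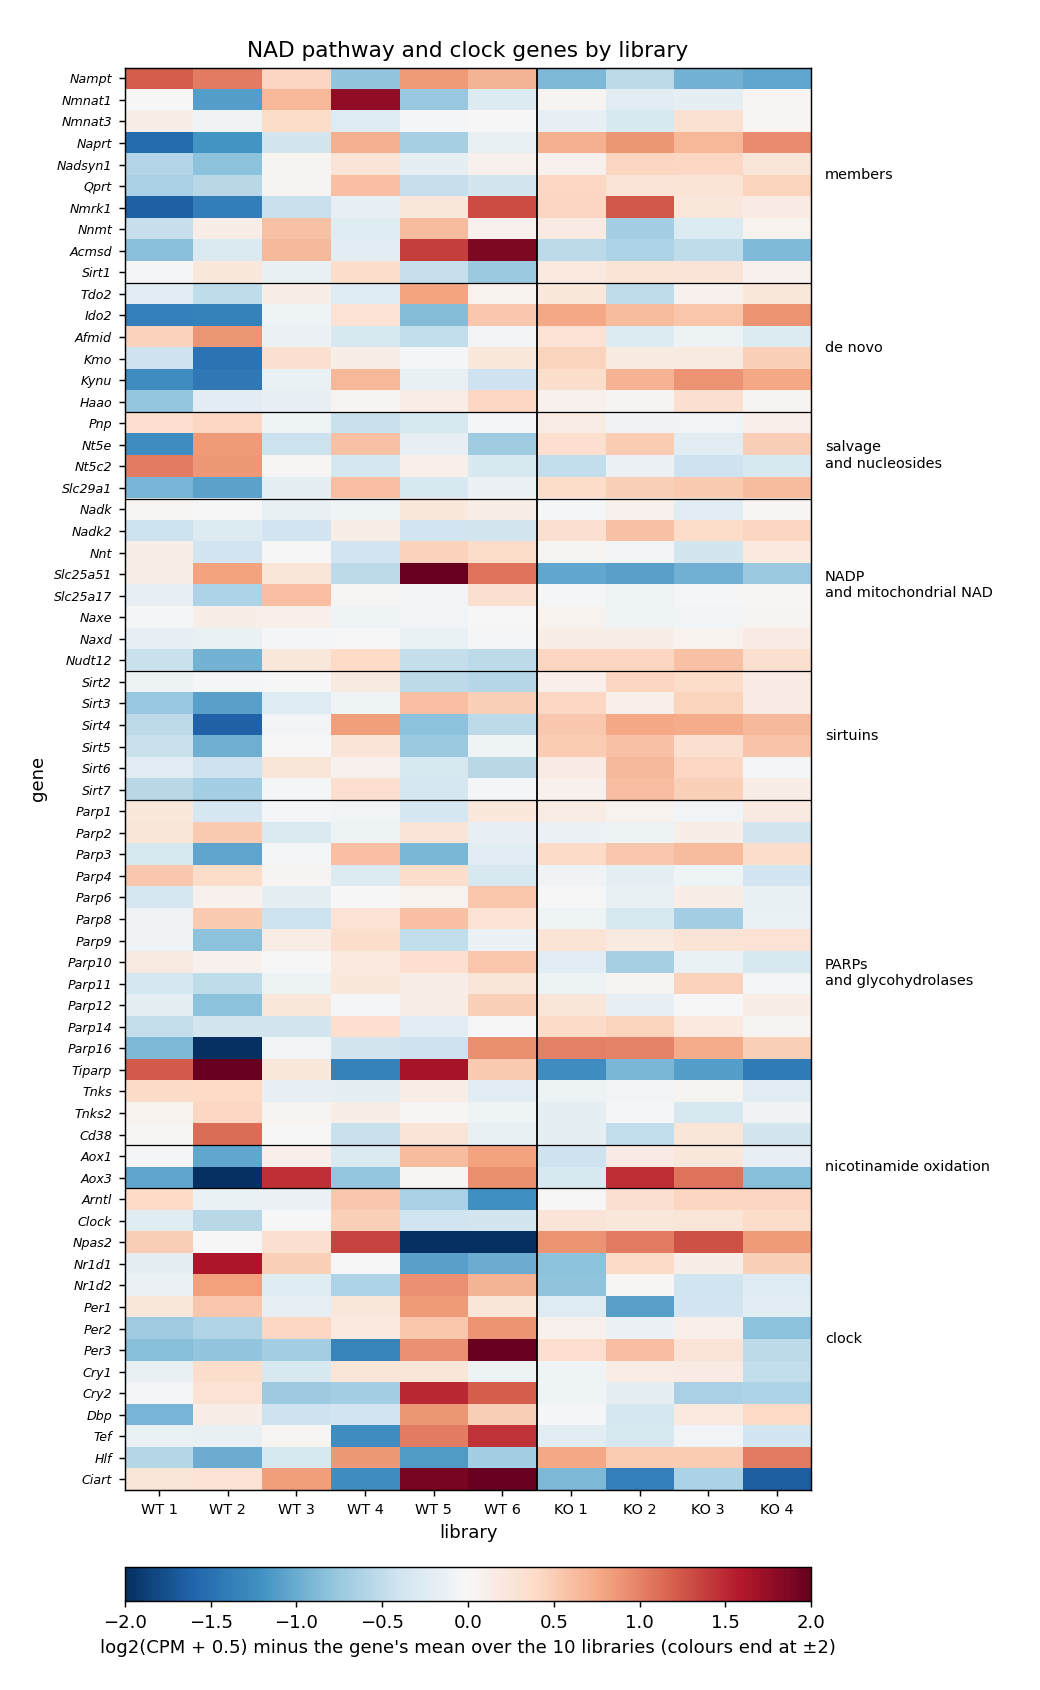
Heat map of the 10 NAD genes and the 56 tested genes of the wider lists (rows, grouped by list) in the 6 WT and 4 KO libraries (columns), as log2(CPM + 0.5) relative to each gene's average, with colours ending at ±2. The Nampt row is red in 5 WT columns and blue in WT replicate 4 and the KO columns. The rows of Acmsd, Slc25a51 and Ciart have their highest values, in red, in WT replicates 5 and 6.

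Likeness to Nampt inside the groups was Pearson's r of log2 CPM with group means removed over the 10 libraries. It was taken among 11526 tested genes with a gene name (clone and predicted-gene symbols left out) and a mean of at least 1 CPM. Most like Nampt were Maff (0.973), Dusp16 (0.969), Txnrd3 (0.965), Gml2 (0.963) and Tgif1 (0.962). WT replicate 4 lies far from the others here too, so the values are a description. Gml2 was near the floor, with 2, 3, 0 and 0 counts in KO replicates 1 to 4 and 6 in WT replicate 4. Maff encodes a small MAF transcription factor and Dusp16 a MAP kinase phosphatase. WT replicate 4 had 1.91 CPM of Maff, against 5.504 to 12.9 CPM in the remaining WT livers and 1.61 to 2.85 CPM in KO livers. For Dusp16 the values were 19.0, 47.8 to 78.8 and 15.1 to 20.9 CPM in the same order. The 5 genes were thus low in WT replicate 4, like Nampt, and with the 6 WT libraries alone 0 of these 5 were among the 5 most like it, although their r there was 0.972 to 0.984.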

How the data were processed

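Liver poly(A) RNA was sequenced in 10 libraries (6 WT, 4 KO). The authors deposited raw read counts per gene symbol, 1 column per library, and 0 columns were left out. STAR, HTSeq, DESeq2 and mm10 are named per the submitters' processing notes; no source used here gives versions, roles, annotation or strand setting. Totals were 12307446 to 17098012 counts. Libraries of a group differed beyond sampling noise (chi-square per degree of freedom 20.8 to 169). The labels name no animals, so p-values speak only of the spread among libraries.

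Testing used edgeR 4.0.16 (R 4.3.3): TMM scaling, filterByExpr, robust quasi-likelihood, no covariate, Benjamini-Hochberg over 13688 genes, called under 0.05. CPM uses TMM-adjusted library sizes. SE is the log2 fold change over the square root of F. Likeness used log2 CPM with a prior count of 2. Marker sums were compared by exact permutation over 210 labelings (smallest p 0.00476). Coordinates and exon lengths are from GENCODE M21 (GRCm38), where 22277 of 23056 symbols were found; promoters are RefSeq's.

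The members and lists were chosen with earlier results of these data known. Named genes were the 10 members, Ifrd1, in each list the called genes (up to 4) or otherwise the 2 with the smallest p, and the 5 most like Nampt; other genes named in the text were picked after their values were seen. On simulated counts (13435 genes) recovery in KO against WT was 6% for changes of 1.5-fold, 26% for 2-fold, 78% for 4-fold, and 88% for 8-fold. Of the genes called there, 2.94% had not been changed. The simulated libraries were independent, with the same variability per gene in both groups. They lacked the departure of WT replicate 4 and the wider spread of WT, so the rates may not hold for the real libraries. The settings varied were scaling (RLE, upper quartile), the filter (none, or 1 CPM in 4 libraries), DESeq2 1.42.0, limma-voom (limma 3.58.1), the replicate number as a block, and each library left out; leaving out WT replicates 5 and 6 was added after seeing the data.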

Additional observations from a re-analysis of the deposited data

Results flagged for a closer look

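In 12 of 158 groups examined (genes or marker sums in WT or KO), 1 library stood apart from the rest by Dixon's criterion. Its chance rate of about 1 in 20 holds for independent groups of normally distributed values. These groups share their libraries, so nothing is read from the count of 12. None of the 10 NAD genes was among them. In WT, Nadk2 stood at 53.3 CPM in WT replicate 4 (the next library at 40.1), Hlf at 32.9 CPM in WT replicate 4 (14.1), Tnks2 at 64.7 CPM in WT replicate 2 (52.5), Cd38 at 43.6 CPM in WT replicate 2 (23.8) and Nr1d1 at 36.1 CPM in WT replicate 2 (16.1). In KO, Haao stood at 218 CPM in KO replicate 3 (186), Clock at 47.2 CPM in KO replicate 4 (43.5) and Tgif1 at 29.97 CPM in KO replicate 2 (18.5), while Parp9 was low at 38.2 CPM in KO replicate 2 (40.8). The hepatocyte marker sum was 79231 CPM in WT replicate 2 (50966) and 58070 CPM in KO replicate 2 (49231), and the monocyte and neutrophil sum was 175 CPM in WT replicate 2 (39.2).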

How the results depend on the processing

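The counts of calls moved with single libraries and with the test, while directions mostly held. Over all genes, 182 were called (77 higher, 105 lower). DESeq2 called 1618 (579 and 1039), limma-voom 318 (231 and 87), the fit with the replicate block 1 (0 and 1) and the fit without WT replicates 5 and 6 gave 4 (3 and 1). Leaving out 1 library gave 0 (without KO replicate 1, 2 or 3) to 2893 (without WT replicate 4), with 0 to 1420 higher and 0 to 1473 lower; in the fits with 0 calls, 2681 to 2740 genes had an unadjusted p under 0.05. Of the 10 NAD genes, 1 was called, against 3 with DESeq2 (Nampt, Naprt and Acmsd), 0 with the replicate block, 0 without WT replicates 5 and 6, and 0 to 3 with 1 library left out (3 without WT replicate 4: Nampt, Naprt and Qprt). Of the wider list, 1 was called, against 8 with DESeq2, 2 with limma-voom (Nadk2 and Slc25a51), 0 with the replicate block, 0 without WT replicates 5 and 6, and 0 to 19 with 1 library left out. The log2 fold changes that turned sign were those of Nmnat1 (-0.664 to 0.0922 with 1 library left out), Nmnat3 (-0.179 to 0.0379), Aox3 (-0.0046 to 0.892) and Aox1 (-0.331 to 0.00189, with 0.26 under the replicate block and 0.22 without WT replicates 5 and 6). That of Nmnat1 was above 0 only without WT replicate 4. Why these libraries and settings moved the signs was not tested. By the criterion used (each correlation over 0.1) the replicate numbers did not pair the libraries: deviations of same-numbered WT and KO libraries correlated at 0.179, 0.069, -0.029 and -0.0205, and KO replicates 1 and 2 correlated best with their own number but 3 and 4 with others. Of the 5 genes most like Nampt, 0 were the same in the WT libraries alone, where their r was still 0.972 to 0.984. With 1 library left out, the KO minus WT difference of marker sums ran from -1922 to 6741 CPM for hepatocytes, -11.3 to 6.21 for endothelium, -2.44 to 18.6 for stellate cells, -80.2 to -38.0 for Kupffer cells and macrophages and -40.9 to -8.24 for monocytes and neutrophils, none called. Low counts limit Nmnat2, Bst1, Sarm1, Slc12a8 and Ido1, which were under the filter.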
